A study of Homo sapiens with 12 samples.

Results

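Genes of cell death and growth arrest (BIRC5, PMAIP1, CDKN2A, NF2 and TXNIP) were followed through the RNA crosslinked to human translation initiation factor eIF3. They were chosen by gene name with the table already known, so that all 5 are among its 479 genes is set by the choice. Together they held 14 of its 1477 clusters. A cluster is a short stretch of genome where crosslinked reads pile up. The libraries came from 293T cells, a transformed line derived from human embryonic kidney, grown with 100 µM 4-thiouridine for 14 h and crosslinked with ultraviolet light at 0.15 J per square cm. No genotype or treatment differs between the groups. Every library was precipitated with 1 antibody, against eIF3b, and then separated on a denaturing gel, so the groups are the protein-RNA complexes labelled eIF3a, eIF3b, eIF3d and eIF3g, with 3 libraries each and 12 in all. The table gives 1 value per cluster and subunit with the libraries pooled, and no untreated or antibody control is among the groups. No value below therefore has a spread between libraries, and differences between subunits are described without a test.

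eIF3 joins the small ribosomal subunit and helps to bring it to the 5′ end of an mRNA, after which the ribosome scans the 5′ UTR for the start codon. 4-Thiouridine taken up into RNA crosslinks to a protein in contact with it, and the crosslinked base is then copied as C where the genome has T. Apoptosis is held back by inhibitor proteins and set off by BH3-only proteins that bind the BCL2 family, while tumour suppressors restrain growth through the RB, p53 and Hippo pathways. As background, 293T cells carry the SV40 large T antigen, which binds RB and p53, so this line is a limited model of both pathways. None of the 10 genes taken as markers of the 293T line, and none of the 15 markers of blood, fibroblast or liver cells, had a cluster. These lists cannot check the cell line, because the table lists only 2.21% of protein-coding genes (444 of 20056).

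The members fell into 3 patterns of listing. BIRC5, known as survivin, an inhibitor of apoptosis that also serves in the chromosomal passenger complex of mitosis, was listed for all 4 subunits. NF2, which encodes merlin, a membrane-linked tumour suppressor upstream of the Hippo kinases, was also listed for all 4. Of all genes, 33.6% were listed so (161 of 479). PMAIP1, or NOXA, a BH3-only protein induced by p53, and TXNIP, an arrestin-domain protein that binds thioredoxin and limits glucose uptake, were listed for eIF3a and eIF3d and for neither eIF3b nor eIF3g, a pattern of 7.52% of genes (36 of 479). CDKN2A, whose alternative first exons encode the CDK inhibitor INK4A and the MDM2-binding protein ARF, was listed for eIF3g alone, as were 8.35% of genes (40 of 479). By subunit, 4 of the 5 members were listed for eIF3a, 2 for eIF3b, 4 for eIF3d and 3 for eIF3g, against 68.5%, 55.1%, 74.3% and 73.3% of all genes of the table. With 5 members these counts do not set the group apart from the table. No cluster of any subunit had fewer than 8 reads, so a member that is not listed may still have had some reads.

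PMAIP1, CDKN2A, NF2 and TXNIP had their clusters in the 5′ UTR, and BIRC5 had its main cluster at the start codon. The 5′ UTR took 9 of the 14 member clusters, against 67.8% of all clusters (1001 of 1477). Start codons took 4, all of BIRC5, against 3.79% (56 of 1477). The last was in a coding exon of BIRC5, an annotation of 9.82% of all clusters (145 of 1477). No member had a cluster in an intron, a 3′ UTR or noncoding RNA, annotations of 18.6% of all clusters (275 of 1477). For noncoding RNA this is set by the choice of protein-coding genes. By reads the balance was different, because BIRC5 is the strongest member. Its start codon clusters held 66.5% of the member reads (375 of 564), against 1.82% for start codon clusters over the whole table. The 5′ UTR clusters of the other 4 genes held 30.3% (171 of 564), against 35.6%.

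**Figure D1:**
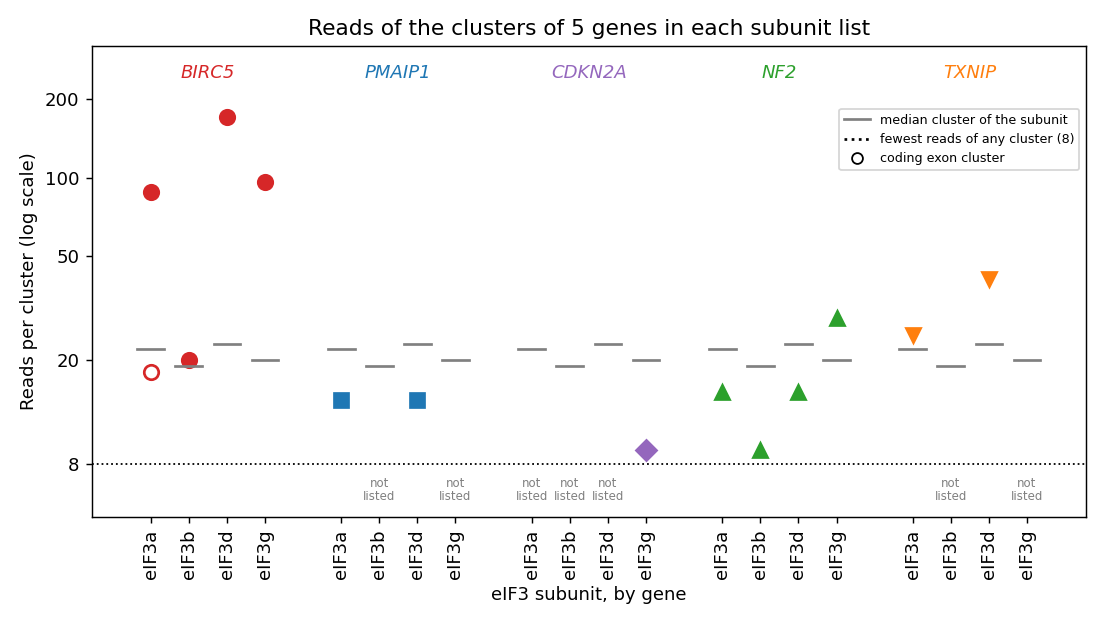
Reads per cluster (log scale) of each gene in each subunit, with filled symbols for 5′ UTR or start codon clusters, an open circle for the coding exon cluster of BIRC5, grey lines for the median cluster of the subunit and a dotted line at 8 reads, the fewest of any cluster. The start codon cluster of BIRC5 lies well above the median in eIF3a, eIF3d and eIF3g and near it in eIF3b. The coding exon cluster of BIRC5 lies below the median of eIF3a. PMAIP1 and CDKN2A lie below the median wherever they are listed.

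BIRC5 (ENSG00000089685) had the most reads of the members, 393 summed over its 5 clusters, which placed it at rank 44 of 479 genes. Its start codon cluster was listed with 88 reads for eIF3a, 20 for eIF3b, 171 for eIF3d and 96 for eIF3g. The exact 95% Poisson intervals, which cover counting error only, were 70.6 to 108, 12.2 to 30.9, 146 to 199 and 77.8 to 117. The interval of eIF3b lay below the other 3, that of eIF3d above them, and those of eIF3a and eIF3g overlapped. Read counts are not scaled between subunits, so the position within each list is given as well. That position depends on which other clusters the list holds. By that measure the cluster was number 31 of 375 in eIF3a, 16 of 403 in eIF3d and 46 of 401 in eIF3g, but in eIF3b it stood at 137 of 298, tied with 8 others. It lay at 7.43 times the median reads of a cluster in eIF3d, and at 1.05 times in eIF3b. Its percentiles were 91.9, 96.2 and 88.7 in eIF3a, eIF3d and eIF3g and 52.9 in eIF3b. BIRC5 was thus near the top of 3 lists and at the middle of the eIF3b list. When only clusters in UTRs, start codons and coding exons were ranked, the percentiles were 92.3, 97.5, 94.1 and 55.7 in the same order. The order of eIF3a and eIF3g thus changed with the ranking.

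The 4 start codon clusters of BIRC5 fell on the same place. On hg19 chromosome 17, plus strand, all of them ended at 76210399, and they began at 76210375 in eIF3a, at 76210370 in eIF3b and eIF3g and at 76210369 in eIF3d. Their starts differed by 6 nt and they had 24 nt in common. Positions are those of the authors' table, whose counting from 0 or from 1 is not stated. A separate cluster in a coding exon, from 76210761 to 76210785, began 362 nt further along the genome, and it was listed for eIF3a only, with 18 reads and 19 conversions. In eIF3a the start codon therefore held 83.0% of the BIRC5 reads (88 of 106, 95% Wilson interval 74.7 to 89.0), and in the other 3 lists it held all of the tabulated reads. A coding exon cluster in addition to one at the start codon was found for 3 genes of the table, BIRC5, ZNF503, a zinc finger protein, and HIST1H1C, a linker histone named here after its values were seen.

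**Figure D2:**
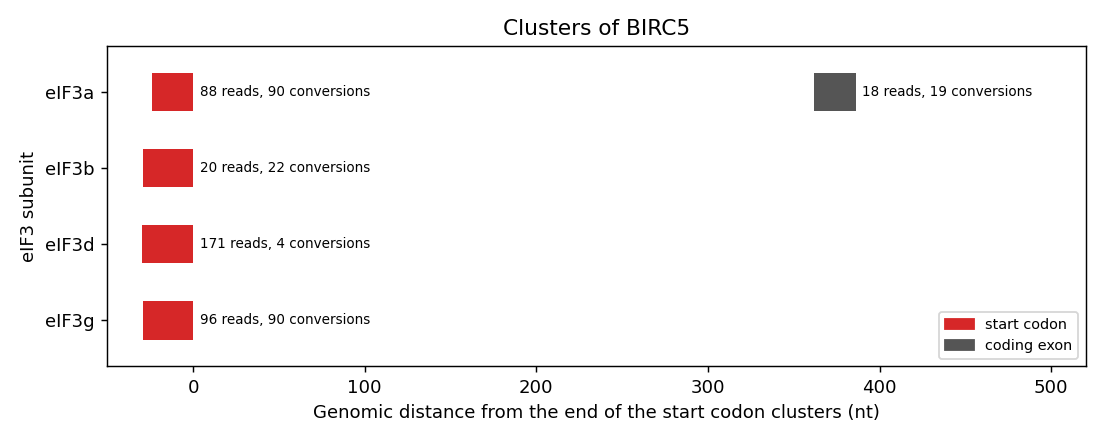
Clusters of BIRC5 in each subunit, drawn to scale along the genome in nt from the shared end of the start codon clusters, with their reads and T-to-C conversions. The 4 start codon clusters cover the same stretch, and the coding exon cluster appears in eIF3a only.

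Among clusters called at a start codon BIRC5 stood at or near the top. The table has 56 such clusters in 23 genes, and 8 of those genes have one in all 4 subunits. BIRC5 had the most reads of the 17 start codon clusters of eIF3d and of the 15 of eIF3g, came after SNRPA among the 15 of eIF3a, and shared the third place with ZNF503 among the 9 of eIF3b. The median start codon cluster had 40 reads for eIF3a, 13 for eIF3b, 31 for eIF3d and 25 for eIF3g. SNRPA, the U1 snRNP A protein, had 141 reads at its start codon for eIF3a, 31 for eIF3b, 163 for eIF3d and 84 for eIF3g. HIST1H2AD, a core histone H2A, had 83, 9, 109 and 93 in the same order. Both genes thus had their fewest reads in eIF3b and their most in eIF3d, as BIRC5 did. HIST1H2BO, a histone H2B, followed in 3 of the lists with 60 reads in eIF3a, 63 in eIF3d and 36 in eIF3g, and HIST1H1E, a linker histone, was second in eIF3b with 21. The orders of BIRC5, SNRPA and HIST1H2AD within a list have no replicate check.

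**Figure D3:**
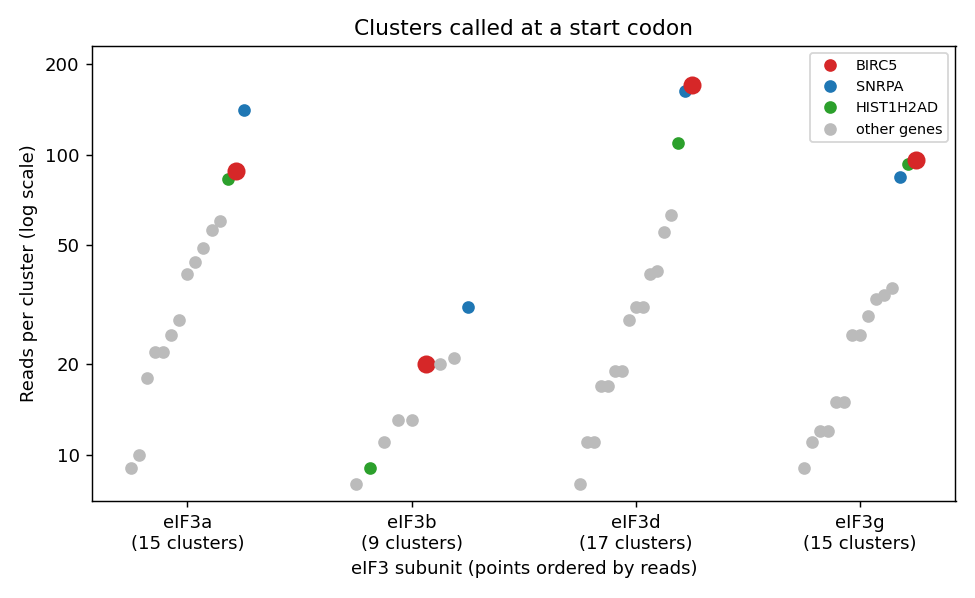
Reads (log scale) of every cluster called at a start codon, by subunit, with points ordered by reads and 3 genes coloured. BIRC5 is first in eIF3d and eIF3g with 171 and 96 reads, second in eIF3a with 88, and at 20 in eIF3b, where all clusters lie between 8 and 31.

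NF2 (ENSG00000186575) had 1 cluster in its 5′ UTR at the same position in all 4 lists, hg19 chromosome 22 from 29999714 to 29999738 on the plus strand. Reads there numbered 15 for eIF3a, 9 for eIF3b, 15 for eIF3d and 29 for eIF3g. The exact Poisson intervals of these counts, 8.40 to 24.7, 4.12 to 17.1, 8.40 to 24.7 and 19.4 to 41.6, overlapped except for that of eIF3g with that of eIF3b. These counts are not scaled between subunits. NF2 stood above the median cluster in eIF3g, at percentile 64.5 of that list. It stood below the median in eIF3a, eIF3b and eIF3d, at percentiles 34.5, 7.72 and 28.8. When only clusters in UTRs, start codons and coding exons were ranked, the percentile in eIF3g was 71.6. The others were then 34.3, 8.16 and 30.2. With 68 summed reads NF2 was one of the weaker genes listed for all 4 subunits, at rank 144 of 161. The lowest summed reads in that class were 41 and the median was 143.

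TXNIP (ENSG00000117289) had a 5′ UTR cluster from 145438768 to 145438794 on the plus strand of hg19 chromosome 1, with the same ends in both lists. It held 25 reads in eIF3a and 41 in eIF3d, above the median of each list, at percentiles 56.3 and 74.2. Among the 36 genes listed only for eIF3a and eIF3d it stood at rank 5 by summed reads, 66 against a median of 32.5. Of 79 genes with at least 25 reads in eIF3a and 41 in eIF3d, 70 were also listed for eIF3b and 76 for eIF3g. Reads here were summed per gene. The 79 include much stronger genes, such as BTG1 with 684 and 2256 reads, so they are not matched to TXNIP in reads. TXNIP was 1 of 3 listed for neither, with CRYGS, a lens crystallin gene, and H2AFX, a variant histone H2A, the latter named after its values were seen.

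PMAIP1 (ENSG00000141682) had 14 reads in eIF3a and 14 in eIF3d, in a 5′ UTR cluster with identical ends in both, from 57567286 to 57567310 on the plus strand of hg19 chromosome 18. Both values lay in the lower part of their lists, at percentiles 30.3 and 24.9. Of 183 genes with at least 14 reads in each of eIF3a and eIF3d, 14 were listed for neither eIF3b nor eIF3g, PMAIP1 and TXNIP among them. CDKN2A (ENSG00000147889) was the weakest member, with 9 reads in a 5′ UTR cluster of eIF3g from 21975043 to 21975062 on the minus strand of hg19 chromosome 9, at percentile 5.86 of that list. The exact Poisson interval of this count runs from 4.12 to 17.1, which reaches below the 8 reads of the weakest clusters in the table. The pattern of 9 reads in eIF3g alone was seen in 3 other genes: STOML2, a mitochondrial membrane protein, TPP2, a peptidase, and UQCR10, a subunit of respiratory complex III. Which of the first exons of CDKN2A holds the cluster was not determined. Genes of the reference that overlap CDKN2A, CDKN2A-AS1 and CDKN2B-AS1 among them, had no cluster.

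Cluster ends agreed between subunits for all members listed more than once except BIRC5: NF2, PMAIP1 and TXNIP had identical ends in every list that held them, as did 41.0% of gene regions listed once in each of 2 or more subunits (143 of 349). Member clusters spanned 19 to 30 nt with a median of 24, the same median as over all clusters, where the quartiles were 22 and 27.

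Reads at shared sites were then compared between subunits, each pair centred on the median difference in log2(reads + 1) over the loci they share, so that a shift common to these loci drops out. The members gave 14 such comparisons, 6 each for BIRC5 and NF2 and 1 each for PMAIP1 and TXNIP. These share subunits and are not independent. Past 2-fold in either direction were 4 of the 14, against 34.6% of all comparisons of this kind (538 of 1557), a share near this background. Of these 4, 3 were BIRC5 with eIF3b at the low side, and the fourth was NF2 in eIF3g against eIF3b.

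For BIRC5 the centred difference of eIF3d minus eIF3b was 2.69 on the log2 scale, a 6.48-fold excess in eIF3d, at percentile 98.5 of the 228 loci of that pair. The background there was 17.5% of loci higher in eIF3d past 2-fold. That of eIF3b minus eIF3a was -1.81, at percentile 2.85 of 228 loci, where 13.6% were higher in eIF3a past 2-fold. That of eIF3g minus eIF3b was 2.00, at percentile 90.3 of 233, where 22.3% were higher in eIF3g, and it fell within 2-fold, at 0.51, when reads were divided by all reads in clusters. These 3 comparisons rest on the same 20 reads of eIF3b. Differences among eIF3a, eIF3d and eIF3g stayed within 2-fold, at 0.81 for eIF3d minus eIF3a, 0.12 for eIF3g minus eIF3a and -0.78 for eIF3g minus eIF3d, pairs in which 22.8%, 38.7% and 36% of loci were past 2-fold in either direction. Divided by all reads in clusters, the values for eIF3g minus eIF3a and eIF3g minus eIF3d were past 2-fold, at -1.92 and -2.20. Scaled by 5′ UTR reads they stayed within 2-fold, at -0.25 and -0.91. The low place of eIF3b was not limited to BIRC5 among start codon loci: eIF3d was above eIF3b at 8 of 8 such loci, with a median centred difference of 1.87, and eIF3b was below eIF3a at 7 of 8, with a median of -1.41. These summaries include BIRC5, were computed after its values were seen and carry no test.

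NF2 was higher in eIF3g than in eIF3b by 1.38 on the centred log2 scale, from 29 and 9 reads. This difference was -0.12 when reads were divided by all reads in clusters. That divisor was 62405 for eIF3g and 15132 to 24150 for the other lists. In the other alternatives the difference stayed positive, from 0.98 with scaling by 5′ UTR reads to 1.58 without scaling. Its direction thus depended on the division by all reads. With that division the difference of eIF3g minus eIF3a also changed sign, from 0.12 to -1.92 in BIRC5 and from 0.91 to -1.14 in NF2. So did that of eIF3g minus eIF3d in NF2, from 0.95 to -0.46. The NF2 difference of eIF3b minus eIF3a kept its sign and went past 2-fold, from -0.41 to -1.02. Scaled by 5′ UTR reads, eIF3g minus eIF3a was -0.25 in BIRC5 and 0.53 in NF2, and eIF3g minus eIF3d was 0.82 in NF2. For the pair of eIF3a and eIF3d, NF2 and PMAIP1 both stood at -0.14 (eIF3d minus eIF3a) and TXNIP at 0.55, all within 2-fold.

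**Figure D4:**
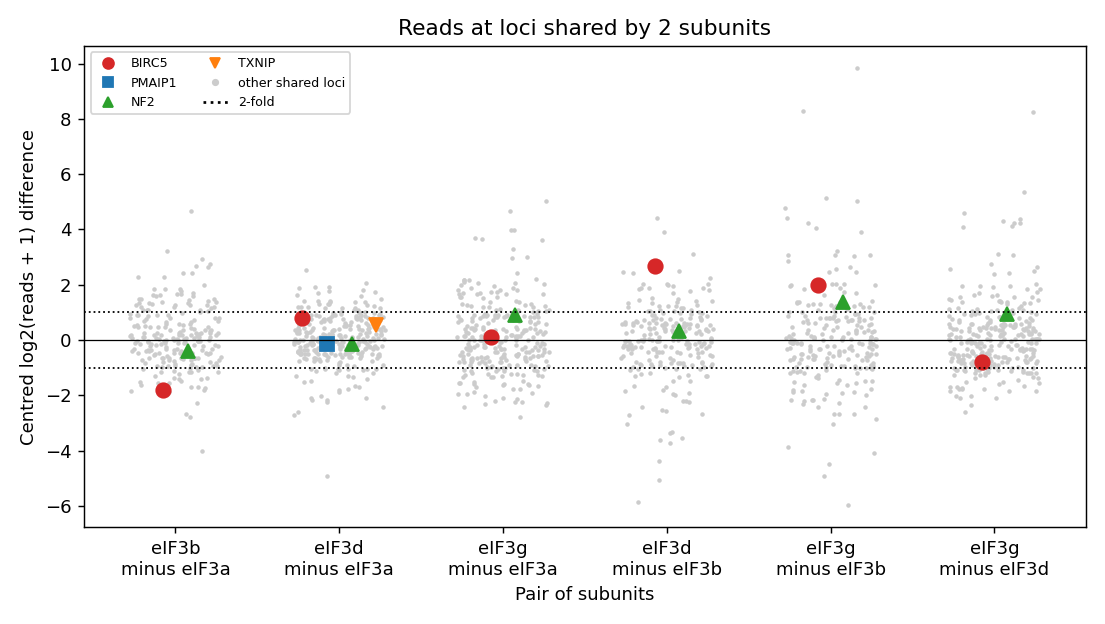
Difference in log2(reads + 1) at loci shared by 2 subunits, centred on the median of each pair, with 2-fold marked by dotted lines and jitter across each column only for display. BIRC5 lies outside the lines in the 3 pairs that contain eIF3b, NF2 in 1 pair, and PMAIP1 and TXNIP, found in 1 pair, lie inside.

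T-to-C conversions mark the crosslinked uridines, and 1 read can carry more than 1. In eIF3a, BIRC5 had 90 conversions in 88 reads at its start codon, NF2 16 in 15, TXNIP 27 in 25 and PMAIP1 12 in 14, or 1.02, 1.07, 1.08 and 0.857 per read. The quartiles over all eIF3a clusters were 0.912 and 1.14, so PMAIP1 lay below the lower one and BIRC5, NF2 and TXNIP between them. In eIF3g, BIRC5 had 90 conversions in 96 reads (0.938 per read), NF2 35 in 29 (1.21) and CDKN2A 9 in 9 (1.0), all within the quartiles of that list, 0.862 and 1.21. In eIF3b, BIRC5 had 22 in 20 reads (1.10) and NF2 5 in 9 (0.556). The quartiles over all eIF3b clusters were 0.918 and 1.18. The NF2 value lay at percentile 10.2 of all eIF3b clusters and 2.81 of its 5′ UTR clusters, on 9 reads only. Member clusters in these 3 lists thus carried about as many conversions per read as other clusters, apart from NF2 in eIF3b and PMAIP1 in eIF3a.

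In eIF3d every listed member had fewer conversions per read than in any other list that held it. BIRC5 had 4 conversions in 171 reads (0.0234 per read), NF2 2 in 15 (0.133), PMAIP1 3 in 14 (0.214) and TXNIP 8 in 41 (0.195), while the median eIF3d cluster had 0.182. The same direction held for all 268 genes listed for both eIF3a and eIF3d, taking the strongest cluster of each, so it was not particular to these mRNAs, and no source states what the conversion column of eIF3d counts. BIRC5 departed furthest among the members: its value in eIF3a was 43.7 times that in eIF3d, at percentile 96.8 of those genes, whose median ratio was 5.29. The ratio was 8.0 in NF2, 5.54 in TXNIP and 4.0 in PMAIP1, between the quartiles of 3.25 and 9.56. These ratios rest on 2 to 8 conversions in eIF3d, and no interval was computed for them. Conversions per read fell with reads across the eIF3d list, and among its 16 clusters with at least 171 reads the values ran from 0.0080 to 0.0699 with a median of 0.0212. BIRC5, the weakest of these 16 by reads, was above 11 of them in conversions per read.

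**Figure D5:**
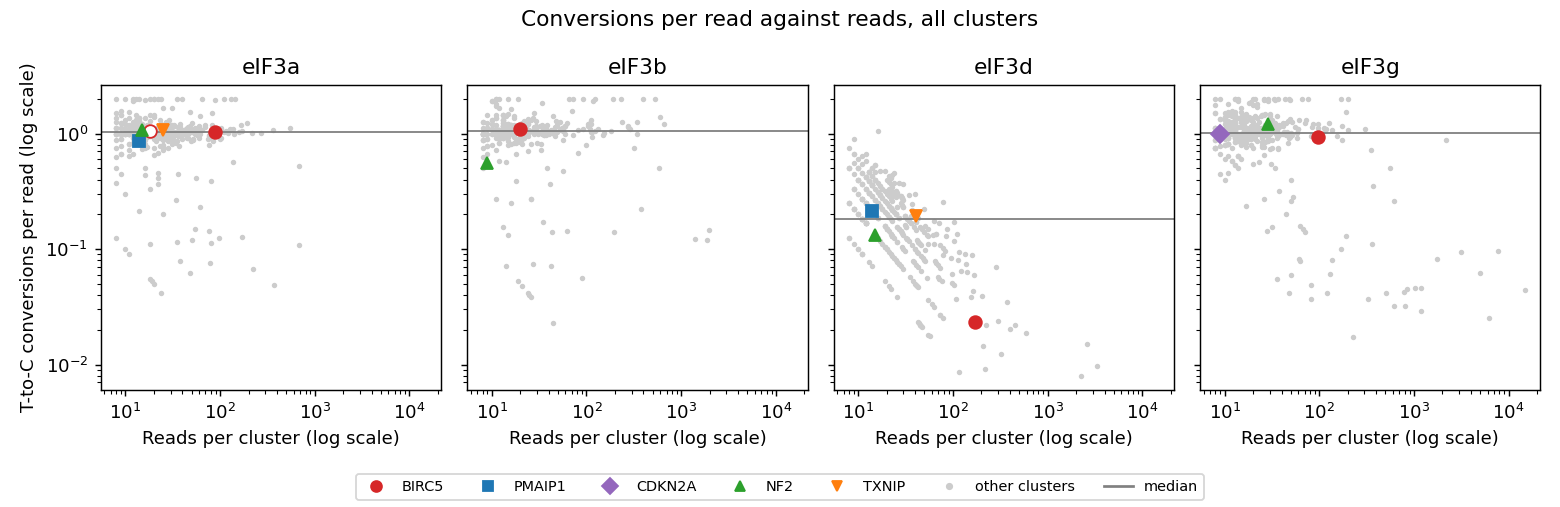
T-to-C conversions per read against reads per cluster, both on log scales, for every cluster of each subunit, with a grey line at the median of the list, the members coloured and the coding exon cluster of BIRC5 as an open circle. Members lie near the line in eIF3a and eIF3g, NF2 lies below it in eIF3b, and in eIF3d BIRC5 lies at 0.0234 where clusters of many reads have few conversions per read.

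Few genes of these pathways were listed, as was so of protein-coding genes at large, of which 2.21% had a cluster (444 of 20056). Of 40 apoptosis genes, among them the BCL2 family, the caspases and the other inhibitors of apoptosis, 2 had a cluster, BIRC5 and PMAIP1. Of the 6 genes for the chromosomal passenger complex, with its Aurora kinases, INCENP and CDCA8, BIRC5 was the only one. Of 38 tumour suppressor and growth arrest genes 4 had a cluster: CDKN2A, NF2, TXNIP and BTG1, an anti-proliferative gene which had 684 reads for eIF3a, 372 for eIF3b, 2256 for eIF3d and 3109 for eIF3g. Of 12 thioredoxin and arrestin-domain genes TXNIP was the only one. The Hippo list had 4 of 21. Besides NF2 these were MOB1A, a co-activator of the LATS kinases, with 55, 111, 43 and 25 reads in its 5′ UTR, AMOT, an angiomotin that binds YAP, with 157, 141, 239 and 146 reads over 15 clusters in its 5′ UTR, and its relative AMOTL1, with 15, 12 and 39 reads in a coding exon in eIF3a, eIF3b and eIF3d. Together the 5 lists named 114 genes, 9 of them with a cluster. The lists were drawn up with the members known, so that their shares lie above the share of all protein-coding genes is in part set by the choice, and they are descriptions only.

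Genes most like each member were taken as those listed for the same subunits at the smallest Euclidean distance over 4 values of log2(summed reads + 1). For BIRC5 these were SNRPA at a distance of 0.760, HIST1H2AD at 1.30 and DDI2, a protease, at 1.52, out of 160 genes. The nearest pair also had their clusters at the start codon, which the distance did not use, while the DDI2 clusters were in a coding exon. For NF2 the nearest were the lincRNA RP3-410B11.1-001 at 0.533, FAU, a ribosomal protein precursor, at 0.595 and MGAT5, a glycosyltransferase, at 0.611. FAU had 14, 10, 18 and 20 reads in its 5′ UTR. For TXNIP they were CHMP2B, a membrane-remodelling protein, with 20 and 51 reads in eIF3a and eIF3d, at a distance of 0.436, a lincRNA at 0.492 and CRYGS at 0.607. For PMAIP1, LIMD1, a LIM domain protein, had 13 and 15 reads in eIF3a and eIF3d at a distance of 0.136, as had an entry annotated as a microRNA, and TOR1A, an ATPase, had 16 and 14 at 0.181. With 4 pooled values per gene these distances describe the lists and carry no error.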

How the data were processed

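The authors deposited 1 table of clusters, each with its gene, subunit, hg19 position, strand, annotation, count of reads and count of T-to-C conversions. These counts are whole numbers without normalization, per the file headers, and the 3 libraries of a subunit are pooled in them. The submitters' processing notes name hg19, cutadapt, Bowtie and bedtools. No source used here gives the cluster caller or its thresholds. Replicate 1 carried a random barcode, per the labels, and its use is not stated. Depth per library is unknown, and the clusters of a subunit held 15132 to 62405 reads in all.

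Gene names that differed only in case were joined. Percentiles place ties at their mean rank. A shared locus was a place where same-strand clusters of 2 subunits had 1 nt or more in common, and reads were compared there as log2(reads + 1) with a call at 2-fold (Python 3.11.15, pandas 2.3.3, NumPy 2.4.6, SciPy 1.17.1; the computation was tested on simulated data). Intervals are at 95% and cover counting error only, with each read treated as an independent molecule. Reads are not independent molecules, so the intervals can be too narrow. List members were looked up by symbol and older symbol in a RefSeq table of GRCh38, used for names and overlaps alone. The members and lists were chosen with earlier results of these data known. Named genes are the members, list genes with a cluster, the 3 other start codon genes with most reads per subunit, and the 3 genes most like each member, with exceptions said to be so. Alternatives covered the cluster filter, ranking, scaling, pseudocount, overlap and fold. Cluster sequences, which need hg19, were not used here.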

Additional observations from a re-analysis of the deposited data

How the results depend on the processing

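When clusters with fewer reads than their subunit's median were dropped, 2 members remained for eIF3a, eIF3d and eIF3g each and 1 for eIF3b, and BIRC5 was the only one left in all 4 lists. By construction this filter removes the lower part of every list. The share of all genes left was not computed, so these counts do not set the members apart. Member comparisons past 2-fold were 4 of 14 without scaling, without a pseudocount and with overlap of 50% of the shorter cluster, against 36.5%, 36.9% and 34.6% of all loci, and 3 with scaling by 5′ UTR reads, against 36.0%. Past 3-fold were 3 of 14, against 17.1%. Divided by all reads in clusters, the NF2 difference of eIF3g minus eIF3b was -0.12, which reverses its sign. It stayed positive in the other alternatives. With division by all reads, 6 of 14 member comparisons and 56.2% of all were past 2-fold. That scaling also brought the BIRC5 difference of eIF3g minus eIF3b within 2-fold, at 0.51. The BIRC5 differences of eIF3b from eIF3a and eIF3d kept their direction and stayed past 2-fold in all 6 alternatives of scaling, pseudocount, overlap and fold. Leaving out a replicate and a test with edgeR were not run, because the table gives pooled values. No paired analysis was possible because the values carry no replicate number.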
